A study of Mus musculus with 39 samples.

Results

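The MHC class II genes were followed in lungs of mice fed permethrin, isoniazid or neither. The list held 10 genes: H2-Aa, H2-Ab1, H2-Eb1, H2-DMa, H2-DMb1, H2-DMb2, H2-Oa, H2-Ob, Cd74 and Ciita. Each gene was read from probe sets that the platform's annotation gives to that symbol alone, and the probe set of highest mean log2 signal over the 39 arrays stood for the gene. By this rule 9 of the 10 genes were measured, through 19 probe sets, among 18193 genes on the array. All 9 were bright enough to be tested, among 13020 tested genes. H2-DMb1 had no probe set of its own and is not reported. H2-Oa, H2-Ob and H2-DMb2 are grouped as B cell forms and the other 6 measured genes as forms that macrophages, dendritic cells and B cells share. This grouping was not tested, and members and lists were chosen with earlier results of these data known.

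The study asked how the lung responds to the pyrethroid insecticide permethrin, with the antituberculosis drug isoniazid as the positive control for tumours. Lungs of 39 female Crlj:CD1(ICR) mice, an outbred stock, were hybridized to Affymetrix arrays, 1 array per animal. After 7 days, at an age of 11 weeks, the groups were isoniazid 2500 ppm in the diet, control diet, permethrin 5000 ppm and permethrin 10000 ppm, with 5 mice each. The same 4 diets were fed for 14 days, to an age of 12 weeks, with 5 mice each except permethrin 10000 ppm with 4. Age and duration therefore cannot be told apart.

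MHC class II molecules are pairs of an alpha and a beta chain on the surface of antigen-presenting cells, where they show peptides from engulfed proteins to CD4+ T cells. H2-Aa and H2-Ab1 encode the 2 chains of the A molecule and H2-Eb1 the beta chain of the E molecule. Cd74 is the invariant chain, which fills the groove until the molecule reaches the endosome. H2-DMa pairs with a DM beta chain (H2-DMb1 or H2-DMb2) to load the peptide there. H2-Oa and H2-Ob form the DO molecule, an inhibitor of DM that is known chiefly from B cells. Ciita is the transactivator that switches the class II genes on, induced by interferon gamma in macrophages and constitutive in B cells and dendritic cells. In the lung, dendritic cells, B cells, macrophages and some epithelial cells carry class II.

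Facts of the whole series bear on these values. Values are log2 of the deposited MAS5 signal after quantile normalization, so a difference of 1 is a doubling, and levels of different genes are not compared because each probe set has its own brightness. The tissue label was borne out by alveolar type 2 markers, whose mean log2 signal ran from 10.8 to 11.3 over the 39 lungs. A high log2 ratio of Gapdh signal at the transcript's 3' end over its 5' end, a sign of degraded RNA (above 0.7 here), marked 7 arrays, each of a 14-day lung: 2 isoniazid, 2 control, 2 permethrin 5000 ppm and 1 permethrin 10000 ppm. Array numbers per group limit the precision. These are whole lungs, so fewer cells of a type and less RNA per cell cannot be told apart. The 8 groups share 1 estimate of the spread, and p-values were adjusted within each comparison (Benjamini-Hochberg, 13020 genes) with a threshold of 0.05.

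Class II genes are known to share short promoter elements, and the stretch just before the start is shown for the gene that passed the test in the diets (H2-Ob), for its partner H2-Oa, and for 3 genes of the pattern between animals described below: H2-Eb1, H2-Aa, of which 1 probe set split the lungs as H2-Eb1 did, and H2-DMb2, of which 2 of 3 probe sets were low in nearly the same lungs. RefSeq promoter windows (build GRCm38.p6, 250 bases before to 50 after the start) matched 7 of the 10 genes, with 2 windows for H2-DMa. They are reference sequences, and the sequences of the outbred animals studied here were not read. Capitals mark TGATTGG, an inverted CCAAT letter string as in the Y box, and AGCAAC, a string as in the core of the X box. Each sequence runs 5′ to 3′ on the gene's strand, from base 120 to base 21 before the start.
H2-Ob (chr17:34238785-34238884, + strand): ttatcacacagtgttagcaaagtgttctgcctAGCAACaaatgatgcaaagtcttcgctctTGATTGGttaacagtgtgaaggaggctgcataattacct
H2-Oa (chr17:34092259-34092358, + strand): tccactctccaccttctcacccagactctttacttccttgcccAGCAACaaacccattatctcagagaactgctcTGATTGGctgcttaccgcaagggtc
H2-Eb1 (chr17:34305747-34305846, + strand): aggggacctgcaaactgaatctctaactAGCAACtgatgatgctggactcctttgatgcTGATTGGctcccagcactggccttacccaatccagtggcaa
H2-Aa (chr17:34287844-34287943, - strand): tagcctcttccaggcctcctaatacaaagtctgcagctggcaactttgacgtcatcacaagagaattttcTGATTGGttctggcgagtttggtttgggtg
H2-DMb2 (chr17:34145129-34145228, + strand): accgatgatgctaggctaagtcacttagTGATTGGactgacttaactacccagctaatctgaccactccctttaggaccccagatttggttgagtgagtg
Both strands of each whole window were searched, and the 2 strings do not overlap in the stretches shown. TGATTGG stood in windows of 6 of the 7 genes, against 7.82% of all 32851 windows, and AGCAAC stood in 14.8% of all windows. In H2-Ob, H2-Oa and H2-Eb1 both strings were present, with their first bases 29, 32 and 31 bases apart. Both at 25 to 40 bases occurred in 17 of all windows, 0.0517%, a spacing chosen with the class II sequences known.

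Isoniazid gave the only class II gene that passed a test against control. Over the mean of both times H2-Ob, the beta chain of DO, fell by 1.24 on the log2 scale (SE 0.24, 95% interval -1.73 to -0.74, limma adjusted p = 0.0112), 2.36-fold lower. It was 1 of the 9 measured class II genes, while 0.392% of all tested genes passed in that comparison. All 9 genes had lower means with isoniazid than in controls at 7 days, at 14 days and over both, with median log2 differences of -0.51, -0.56 and -0.54. Without 7 arrays that show signs of degraded RNA, all at 14 days, the 14-day median was -0.33, with 8 of 9 lower, and the median over both times -0.52. The same medians over all tested genes were 0.01, 0.00 and 0.01. Those genes share arrays and vary together, so the shared sign is a description.

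H2-Ob log2 signals at 7 days were 4.51, 5.71, 5.28, 6.29 and 6.17 with isoniazid, against 7.12, 6.86, 6.46, 6.39 and 7.49 in controls. Every isoniazid lung lay below every control lung, an order that 0.822% of all tested genes also showed. At 14 days they were 5.76, 4.47, 5.47, 5.75 and 5.70 with isoniazid, against 5.70, 6.09, 6.49, 7.90 and 7.00 in controls. Here the groups overlapped through the lowest control, and 0.276% of all tested genes had isoniazid wholly below control. The log2 difference was -1.27 at 7 days (SE 0.35, adjusted p = 0.265) and -1.21 at 14 days (SE 0.35, adjusted p = 0.386), and neither passed alone. All 10 isoniazid lungs lay below the control mean of their time, an order that was not counted over all tested genes. The call ended without the 7 arrays of high Gapdh ratio (log2 difference -1.03, adjusted p = 0.137), where the 14-day difference was -0.78 and the 7-day difference -1.29. It also ended with only the 4 compared groups in the model, at an unmoved difference (adjusted p = 0.0574).

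**Figure D1:**
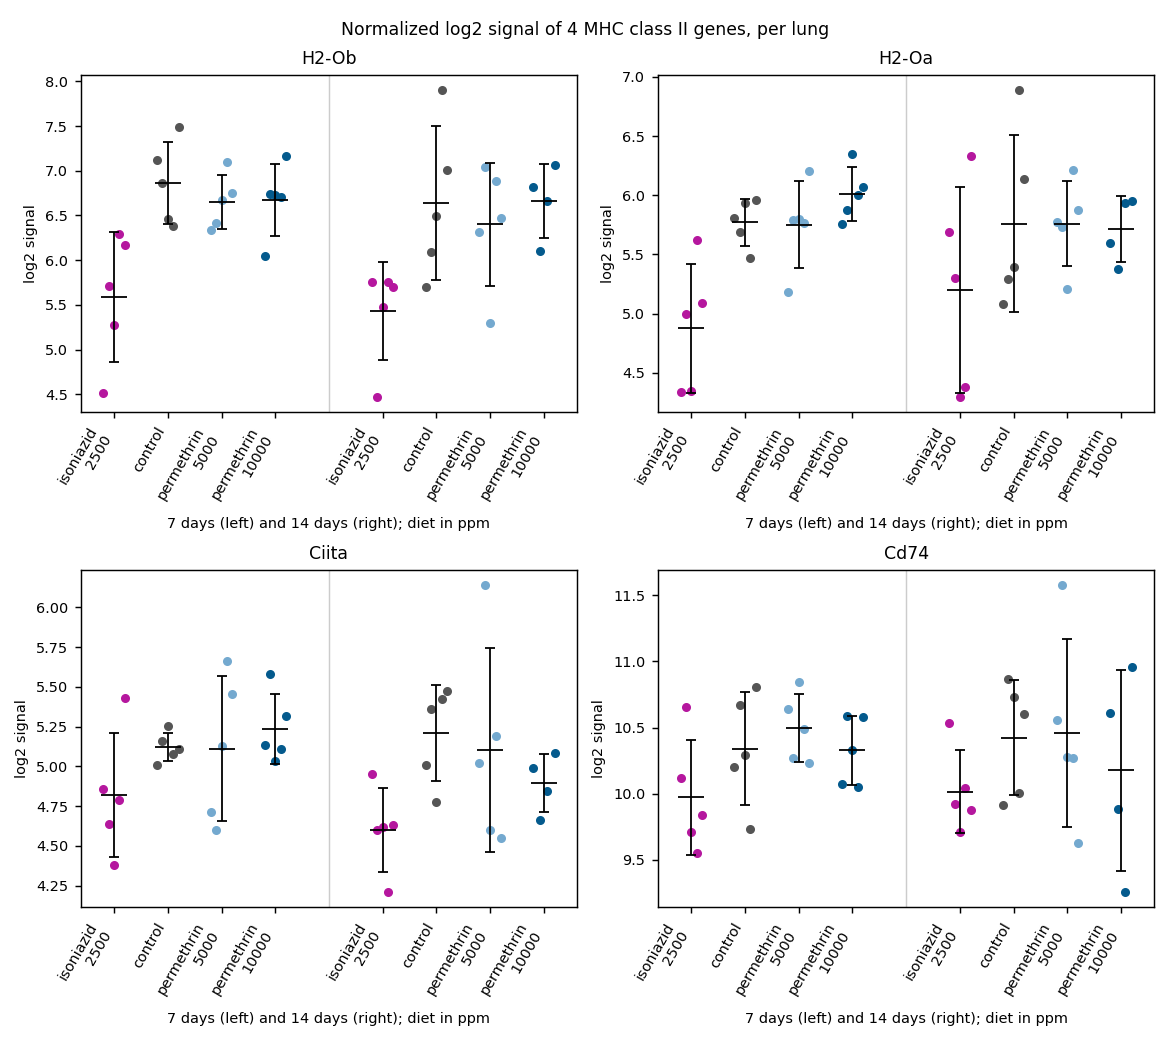
Normalized log2 signal (vertical axis) of H2-Ob, H2-Oa, Ciita and Cd74 in each lung, by diet, with the 7-day groups left and the 14-day groups right of the line. Points are animals, bars are mean and SD (n = 5, or 4 for permethrin 10000 ppm at 14 days). The isoniazid points of H2-Ob run from 4.51 to 6.29 at 7 days, all below the control points, and those of Cd74 overlap the control points at both times.

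H2-Oa, the alpha chain of DO, had the next smallest unadjusted p among class II genes but did not pass. At 7 days its log2 signals were 4.33, 5.00, 4.34, 5.62 and 5.09 with isoniazid, against 5.81, 5.69, 5.93, 5.47 and 5.96 in controls, so 4 of the 5 isoniazid lungs lay below all controls. At 14 days they were 5.69, 5.30, 4.30, 4.38 and 6.33 with isoniazid, against 5.08, 5.29, 5.39, 6.89 and 6.14 in controls, with wide overlap. The log2 difference over both times was -0.73 (SE 0.22, adjusted p = 0.153). H2-DMb2, a beta chain of DM, averaged 5.73 ± 1.35 with isoniazid and 7.09 ± 1.03 in controls at 7 days (SD, n = 5 each). At 14 days it averaged 6.16 ± 1.47 with isoniazid and 6.42 ± 1.71 in controls. Its difference over both times was -0.81 on the log2 scale (SE 0.55, adjusted p = 0.711), less than its within-group SD of 1.33.

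Among the chains of the A molecule, H2-Ab1 averaged 9.41 ± 0.44 with isoniazid and 9.92 ± 0.22 in controls at 7 days, and 9.49 ± 0.31 with isoniazid and 10.07 ± 0.23 in controls at 14 days. The groups overlapped at both times, and the log2 difference over both was -0.54 (SE 0.17, adjusted p = 0.184). H2-Aa differed by -0.33 (SE 0.21, adjusted p = 0.678). The transactivator Ciita read 4.95, 4.60, 4.62, 4.21 and 4.63 with isoniazid at 14 days, against 5.01, 5.36, 4.78, 5.42 and 5.48 in controls, with 1 isoniazid lung above the lowest control. Its difference over both times was -0.46 (SE 0.16, adjusted p = 0.298).

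The invariant chain Cd74 averaged 9.97 ± 0.43 with isoniazid and 10.34 ± 0.42 in controls at 7 days, and 10.02 ± 0.31 with isoniazid and 10.42 ± 0.44 in controls at 14 days. Its difference over both times was -0.39 (SE 0.20, 95% interval -0.79 to 0.01, adjusted p = 0.562). H2-DMa, the alpha chain of DM, differed least, by -0.17 (SE 0.16, 95% interval -0.49 to 0.14). H2-Eb1 had a difference of -1.13 with an SE of 0.76, which is smaller than its spread between animals. At an unadjusted p of 0.05 or less, 3 of the 9 genes stood at 7 days, 3 at 14 days and 4 over both times, all lower, against 849, 785 and 1190 of the 13020 genes tested. No class II gene passed at either time alone, where 0.0461% of all tested genes passed at 7 days and 0.0307% at 14 days.

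**Figure D2:**
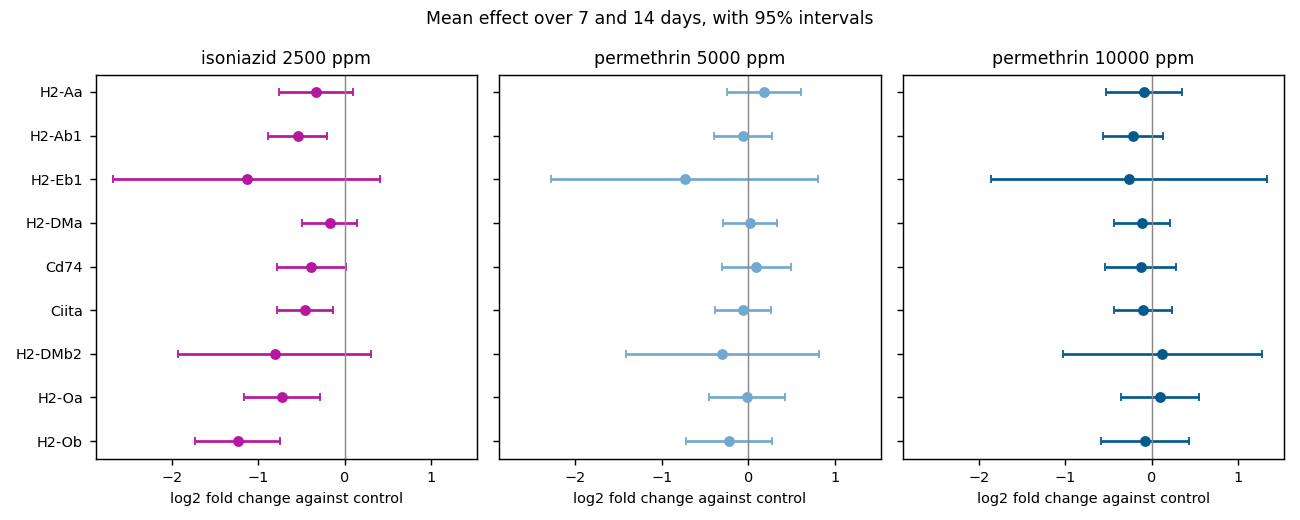
Log2 fold change against control (horizontal axis), averaged over 7 and 14 days, for the 9 measured class II genes under each diet. Points are limma estimates and bars 95% intervals. With isoniazid all 9 points lie left of 0 and the H2-Ob interval runs from -1.73 to -0.74, while the permethrin points lie on both sides of 0.

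Markers of the cells that carry class II were set beside these values. Of 20 B cell markers 17 were tested, and the median log2 difference was -0.70 at 7 days (17 of 17 lower) and -0.44 at 14 days (15 of 17 lower), with 0 past the threshold at either time or over both. Over both times Blnk, an adaptor of B cell receptor signalling, differed by -0.68 (adjusted p = 0.188) and the transcription factor Spib by -0.56 (adjusted p = 0.188). The B cell marker score, the mean log2 signal of the 17 genes, ran from 5.17 to 6.39 with isoniazid and from 6.29 to 6.65 in controls at 7 days. At 14 days it ran from 5.43 to 6.0 with isoniazid and from 5.30 to 7.26 in controls. Without the 7 arrays of high Gapdh ratio the B cell median was -0.71 at 7 days and 0.07 at 14 days. The part of B cell RNA in the H2-Ob difference was not tested.

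Of 18 dendritic cell markers 14 were tested, with a median log2 difference of -0.17 at 7 days and -0.42 at 14 days under isoniazid. Itgae, the integrin chain CD103 of airway dendritic cells and of some T cells, fell by 1.42 on the log2 scale at 14 days (SE 0.25, adjusted p = 0.00938) and by 1.13 over both times (adjusted p = 0.000635). Wdfy4, which cross-presenting dendritic cells need, fell by 0.71 over both times (SE 0.15, adjusted p = 0.0216). These were the 2 of 14 markers that passed over both times, against 0.392% of all tested genes. Without the 7 arrays Itgae passed over both times (log2 difference -0.89, adjusted p = 0.0139) and did not at 14 days (-0.93, adjusted p = 0.848). Wdfy4 did not pass over both times without them (-0.65, adjusted p = 0.128). The dendritic cell score at 14 days ran from 5.88 to 6.07 with isoniazid and from 6.28 to 6.57 in controls. The 20 tested macrophage markers had medians of 0.09 at both times and 0.11 over both, with 0 past the threshold. No plasma cell (7) or T cell and thymus marker (10) passed either, with medians of -0.05 and -0.01 over both times. The liver gene score was also lower with isoniazid at 14 days, at 5.35 ± 0.35 against 6.38 ± 0.49 in controls (SD, n = 5 each), and the cardiac muscle score was higher, at 8.28 ± 0.68 against 7.21 ± 0.66 in controls. The brown fat score was 6.38 ± 1.23 with isoniazid and 5.25 ± 1.03 in controls at 14 days, with all 8 genes higher in their means. No gene of these 3 lists passed. Fabp4 stood on both the brown fat and the macrophage list. The parts of these markers in the class II values were not tested.

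**Figure D3:**
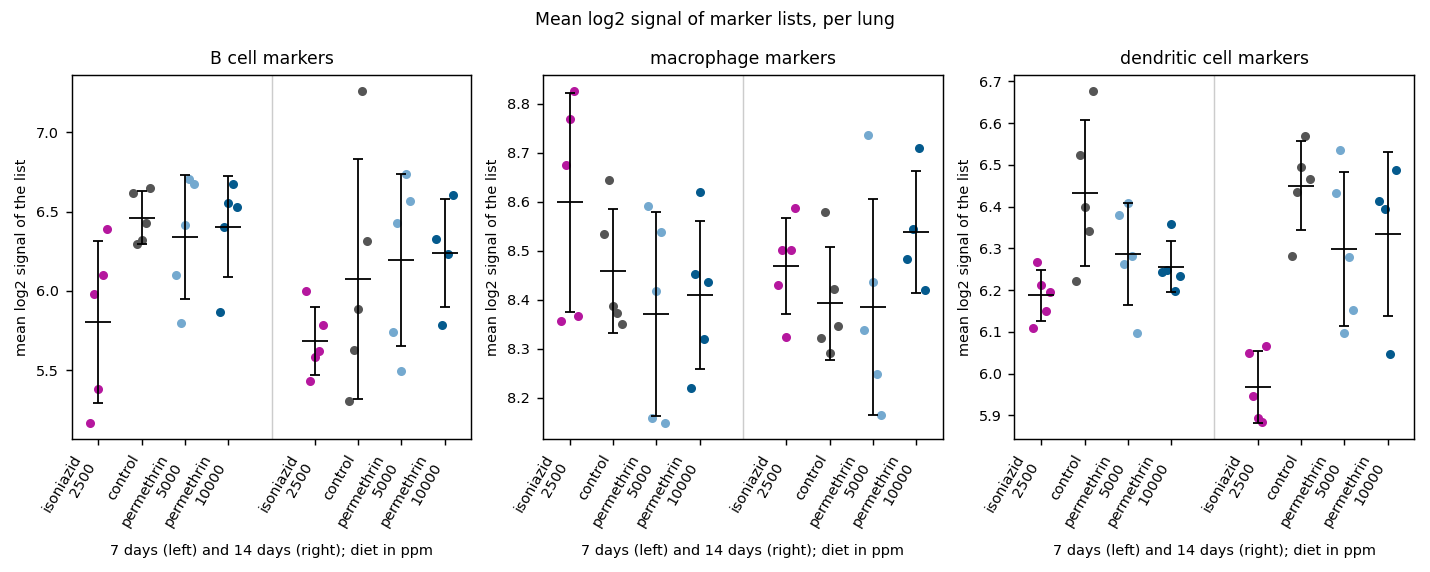
Mean log2 signal (vertical axis) of the B cell (17 genes), macrophage (20 genes) and dendritic cell (14 genes) markers in each lung, by diet, at 7 days (left) and 14 days (right). Points are animals, bars mean and SD. The isoniazid points of the dendritic cell panel at 14 days, 5.88 to 6.07, lie below the control points, 6.28 to 6.57, and the macrophage points of these diets overlap.

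Around the class II genes themselves, 1 of 18 tested class II regulators passed with isoniazid over both times, against 0.392% of all tested genes. Irf8, an interferon regulatory factor of dendritic cells, B cells and macrophages, fell by 0.48 over both times (SE 0.10, adjusted p = 0.0150). It did not pass without the 7 arrays (log2 difference -0.42, adjusted p = 0.134). Over deviations of the 39 lungs from their group means, Irf8 had r = 0.83 (rho 0.761) with H2-Ob, as a description. None of 14 genes for antigen processing and class II turnover, 8 for costimulation, 16 of the MHC class I pathway, 13 induced by interferon gamma and 14 induced by type I interferon passed over both times, with list medians of 0.01, 0.03, -0.03, -0.04 and -0.04. The costimulator Cd86 differed by -0.36 (adjusted p = 0.404) and the dendritic cell maturation marker Cd83 by -0.35 (adjusted p = 0.285).

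Permethrin changed no class II gene past the threshold at either dose or time. At 10000 ppm 0 of 9 passed at 7 days, 14 days and over both, against 0.238%, 0.215% and 0.499% of all tested genes. At 5000 ppm 0 of 9 passed, against 0.0922%, 0.131% and 0.223% of all tested genes. No class II gene reached an unadjusted p of 0.05 in any of these 6 comparisons by limma. Over all 13020 genes 410, 787 and 849 did at 10000 ppm (7 days, 14 days and both), and 259, 680 and 486 at 5000 ppm. Median log2 differences over the 9 genes were -0.10 at 10000 ppm and -0.06 at 5000 ppm over both times.

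H2-Ob averaged 6.86 ± 0.46 in controls, 6.66 ± 0.30 at 5000 ppm and 6.68 ± 0.40 at 10000 ppm after 7 days (SD, n = 5 each). After 14 days it averaged 6.64 ± 0.86 in controls, 6.40 ± 0.68 at 5000 ppm and 6.66 ± 0.41 at 10000 ppm (n = 4 for the last). These 6 groups lay within their spread of each other, and both isoniazid means, 5.59 and 5.43, lay below them. Cd74 averaged 10.34 in controls, 10.50 at 5000 ppm and 10.33 at 10000 ppm after 7 days, and 10.42 in controls, 10.46 at 5000 ppm and 10.18 at 10000 ppm after 14 days. Leaving aside H2-Eb1 and H2-DMb2, the 95% intervals of the log2 difference over both times reached at most from -0.59 (H2-Ob) to 0.55 (H2-Oa) at 10000 ppm. At 5000 ppm they reached from -0.72 (H2-Ob) to 0.61 (H2-Aa). For H2-Eb1 the intervals were far wider, -1.86 to 1.33 at 10000 ppm and -2.28 to 0.81 at 5000 ppm.

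The 2 compounds differed in H2-Ob. Permethrin 10000 ppm had H2-Ob higher than isoniazid by 1.16 on the log2 scale over both times (SE 0.25, adjusted p = 0.0168), with all 9 permethrin lungs above the isoniazid mean of their time. This was 1 of 9 class II genes, against 0.353% of all tested genes. H2-Oa was higher by 0.82 (SE 0.22, adjusted p = 0.126), also with all 9 permethrin lungs above the isoniazid mean of their time. The share of all tested genes with that order was not counted. The H2-Ob call ended in 4 of 39 fits that left out 1 animal: isoniazid 7 days replicate 1, isoniazid 14 days replicate 2, and permethrin 10000 ppm 14 days replicates 1 and 4 (adjusted p of 0.0522 to 0.0569). H2-Oa passed without isoniazid 14 days replicate 5 (log2 difference 0.96, adjusted p = 0.0169) and without the 7 arrays (0.84, adjusted p = 0.0293). Comparisons with isoniazid share its 10 arrays.

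No class II gene differed between permethrin 10000 and 5000 ppm, where 0.00768% of all tested genes passed. None passed between 14 and 7 days, where 18.2% of all tested genes did. The largest of the time differences relative to its error was H2-DMa, higher at 14 days by 0.26 (SE 0.11, adjusted p = 0.104). The change of each diet's effect between the times passed for 0 of 9 class II genes and for 0% of all tested genes under permethrin 10000 ppm, 0% under permethrin 5000 ppm and 0% under isoniazid. For H2-Ob the isoniazid effect changed by 0.06 with an SE of 0.49. Over all 8 groups, H2-Ob was the 1 class II gene that passed limma's moderated F test (adjusted p = 0.0367), against 2.15% of all tested genes. That call ended in 10 of the 39 fits that left out 1 animal: controls 1, 2 and 5, isoniazid 1, 2 and 3 and permethrin 10000 ppm 2 at 7 days, and control 5 and isoniazid 1 and 2 at 14 days, by replicate number.

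H2-Eb1, the beta chain of the E molecule, varied widely between animals of 1 group. Its within-group SD was 1.84 on the log2 scale, against a median of 0.26 and a 95th percentile of 0.67 over all tested genes. The 39 lungs fell into 2 levels with nothing between 6.82 and 8.51: 16 lungs from 5.10 to 6.82 and 23 lungs from 8.51 to 10.63. The low level held 2 of 5 isoniazid lungs and 1 of 5 control lungs at 7 days, and 3 of 5 isoniazid and 2 of 5 control lungs at 14 days. For permethrin it held 3 of 5 lungs at each dose at 7 days, and 2 of 5 at 5000 ppm and 0 of 4 at 10000 ppm at 14 days. Both levels thus occurred in 7 of the 8 groups.

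Some other class II probe sets were low in the same or nearly the same animals. The third-brightest probe set of H2-Aa had its 16 lowest values, 7.88 to 8.98, in exactly those 16 lungs, and the other 23 ran from 10.05 to 11.67. The brightest probe set of H2-DMb2 shared 15 of its 16 lowest lungs with the low level of H2-Eb1, and so did its dimmest, but values of the brightest in low and high H2-Eb1 lungs overlapped (3.70 to 6.66 and 6.17 to 8.55). Its second-brightest probe set shared 10 of 16, with values of 4.93 to 6.31 in low and 4.49 to 6.84 in high H2-Eb1 lungs. The brightest probe set of H2-Aa shared 2 of its 16 lowest lungs with them, fewer than any other class II probe set. It ran partly the other way, with r = -0.44 and rho = -0.47 to H2-Eb1 over deviations from group means, as a description. Its values in low and high H2-Eb1 lungs overlapped (10.31 to 11.44 and 9.79 to 11.73). By the brightest probe set of Cd74, H2-Ob, H2-Oa, H2-DMa, H2-Ab1 and Ciita, 4 to 8 of the 16 lowest lungs were shared. H2-Ea, the alpha chain of E and not among the 10 genes, was arranged otherwise. Its brightest probe set read at least 9.12 in 10 lungs and at most 6.09 in the other 29, and all 10 were among the 23 lungs of high H2-Eb1. The 10 lungs came from 6 groups, with none from isoniazid or permethrin 5000 ppm at 7 days (highest values 5.80 and 5.96). H2-Ea averaged 4.72 with isoniazid and 7.04 in controls at 7 days, and 5.40 and 7.10 at 14 days. The part of this in the isoniazid differences of class II genes was not tested. These levels were defined from the data, so no group of animals was formed from them and no test was run. What separates the animals of this outbred stock was not tested.

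**Figure D4:**
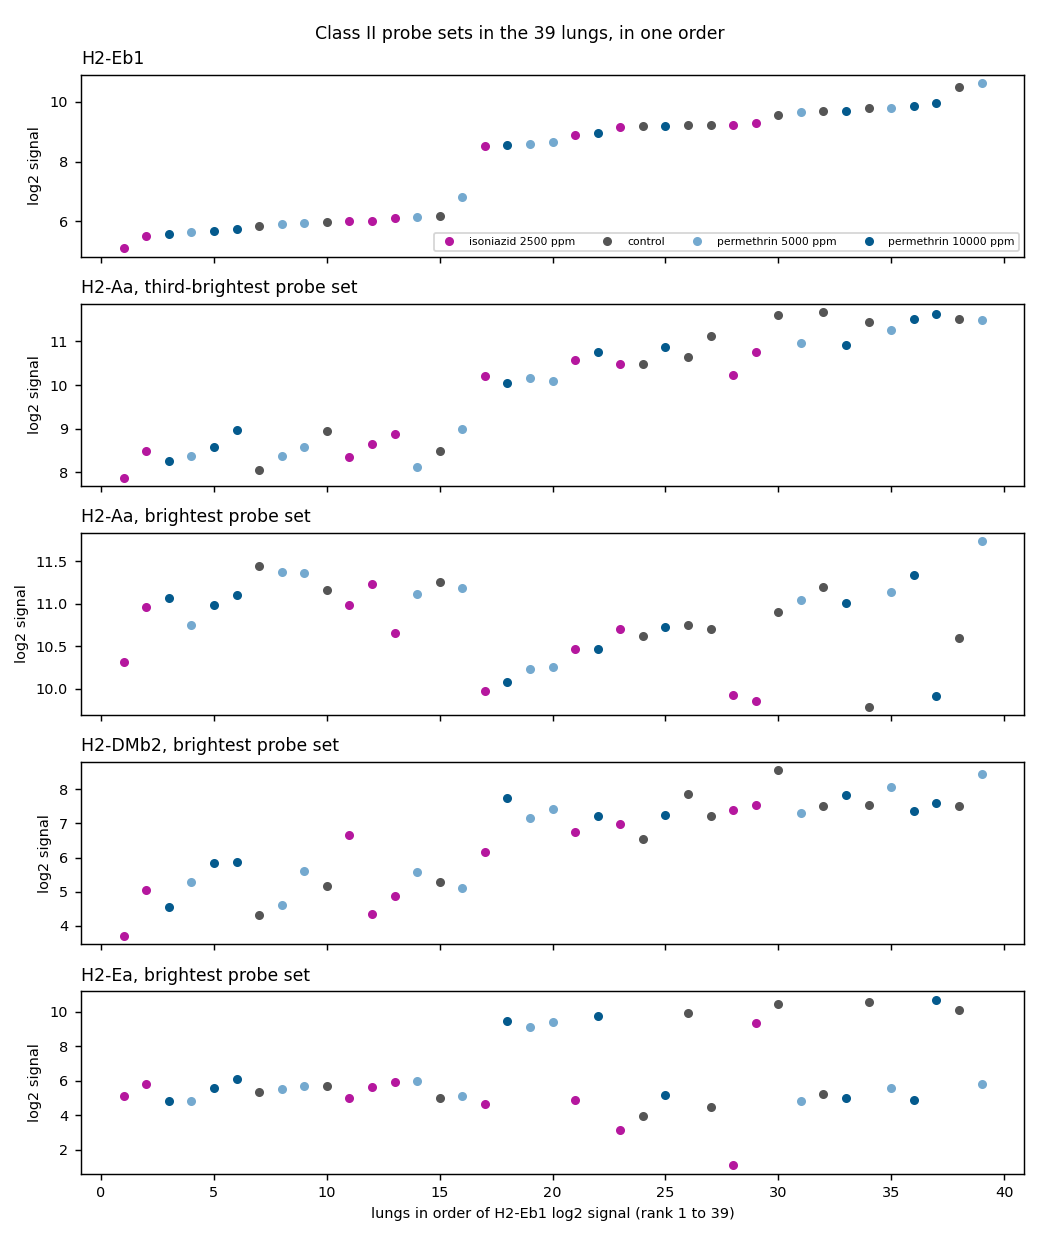
Log2 signal (vertical axes) of 5 class II probe sets in the 39 lungs, all in the order of H2-Eb1 signal from rank 1 to 39 (horizontal axis), coloured by diet. H2-Eb1 steps between rank 16 and 17, and the third-brightest H2-Aa probe set steps with it. The brightest H2-DMb2 probe set is mostly lower left of the step. The brightest H2-Aa probe set shows no such step and runs partly the other way (r = -0.44 with H2-Eb1 over deviations from group means). High H2-Ea stands in 10 of the lungs of high H2-Eb1.

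Where a gene had several probe sets, their isoniazid differences ran the same way. Over both times the 4 probe sets of H2-Aa differed by -0.33, -0.52, -0.95 and -0.26 from brightest to dimmest, and none passed with every named probe set tested. The 3 of H2-Ab1 differed by -0.54, -0.44 and -0.56, and the 3 of H2-DMb2 by -0.81, -0.46 and -1.28. H2-DMa gave -0.17 and -0.37, and the 2 tested probe sets of Ciita gave -0.46 and -1.32. The dimmer of these Ciita probe sets read as low as 1.06 at 7 days and -1.05 at 14 days with isoniazid. Its medians lay closer together, at 4.32 with isoniazid and 4.59 in controls at 7 days. At 14 days they were 4.15 with isoniazid and 4.73 in controls. H2-Ob, H2-Oa, H2-Eb1 and Cd74 rest on 1 probe set each. The third-brightest H2-Aa probe set and the brightest and dimmest of H2-DMb2 were low in the same or nearly the same lungs as H2-Eb1. That low level held 2 of 5 isoniazid and 1 of 5 control lungs at 7 days. At 14 days it held 3 of 5 isoniazid and 2 of 5 control lungs. Its part in these differences was not tested.

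Within the groups, H2-Ob followed the B cell marker score. Over deviations of the 39 lungs from their group means, r was 0.875 and rho 0.861 (permutation p = 1e-05, the smallest the 100000 permutations can give, adjusted p = 0.000105 over 21 relations). It stayed at 0.833 without the 2 lungs most distant in the score and at 0.848 in the 32 arrays of lower Gapdh ratio, and was 0.835 at 7 days and 0.899 at 14 days. H2-Oa had r = 0.70 and rho = 0.715 with the same score (adjusted permutation p = 0.000105, r = 0.596 without 2 lungs). Cd74 had r = 0.057 and rho = 0.063 with it (adjusted permutation p = 0.774), and in the 32 arrays r was 0.436 (adjusted permutation p = 0.0780). The signals of gene and score come from the same arrays and share their RNA quality.

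Among the shared forms Cd74, H2-Aa, H2-DMa and H2-Ab1 passed with the dendritic cell score, and H2-DMa, H2-Ab1 and Ciita passed with the B cell score. Cd74 had r = 0.697 and rho = 0.628 with the dendritic cell score (adjusted permutation p = 0.00042, r = 0.607 without 2 lungs). H2-Aa had r = 0.656 and rho = 0.653 (adjusted permutation p = 0.000756, r = 0.601 without 2 lungs) and H2-DMa r = 0.628 and rho = 0.582 (adjusted permutation p = 0.000735, r = 0.720 without 2 lungs). H2-Ab1 had r = 0.532 and rho = 0.435 (adjusted permutation p = 0.0071, r = 0.486 without 2 lungs). Ciita had r = 0.305 and rho = 0.273 with the dendritic cell score and did not pass (adjusted permutation p = 0.186). By time, r with the dendritic cell score was -0.18 at 7 days and 0.63 at 14 days for Ciita. It was 0.309 and 0.676 for H2-Ab1, 0.402 and 0.823 for H2-Aa, 0.439 and 0.727 for H2-DMa, and 0.623 and 0.740 for Cd74. The highest Cd74 and H2-Ab1 signals of all lungs, 11.58 and 11.20, were both in permethrin 5000 ppm 14 days replicate 2. The highest Ciita and H2-DMa signals, 6.14 and 8.73, were in the same group. The weight of single lungs with such high signals in these r values, and in the ranking of similar genes below, was not tested. H2-Ob had r = 0.389 and rho = 0.335 with the dendritic cell score (adjusted permutation p = 0.0426 for r and 0.122 for rho). The adjusted permutation p of r was 0.0734 without 2 lungs and 0.0780 in the 32 arrays. With the B cell score H2-DMa had r = 0.551 and rho = 0.543 (adjusted permutation p = 0.0101), and without 2 lungs r was 0.472 at an adjusted permutation p of 0.0549. In the 32 arrays that r was 0.682 (adjusted permutation p = 0.00173). H2-Ab1 also had r = 0.431 and rho = 0.467 with the B cell score (adjusted permutation p = 0.0331), and without the 2 most distant lungs r was 0.465 at an adjusted permutation p of 0.0582; in the 32 arrays it was 0.742 (adjusted permutation p = 0.00126). Ciita had r = 0.481 and rho = 0.511 with the B cell score (adjusted permutation p = 0.0308), and without 2 lungs r was 0.494 at an adjusted permutation p of 0.0549. None of the 7 relations to the macrophage score passed, the highest being H2-DMa at r = 0.402 (rho 0.318, adjusted permutation p = 0.0689). That score includes Fabp4, which is also on the brown fat list. No relation to a score was computed for H2-Eb1, whose animals fall into 2 levels, or for H2-DMb2, whose chosen probe set is low in nearly the same lungs. H2-Aa was kept, although its chosen probe set ran partly against H2-Eb1 (r = -0.44 over deviations from group means). The part of this in the r values of H2-Aa, with the scores and with the genes most like it, was not tested. The r of H2-DMb2 was -0.06 with H2-Oa and 0.33 with H2-Ob (rho -0.10 and 0.31, over the same deviations of 39 lungs, as a description). Between H2-Oa and H2-Ob r was 0.62 (rho 0.62), so these values do not bear out the place of H2-DMb2 among the B cell forms.

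**Figure D5:**
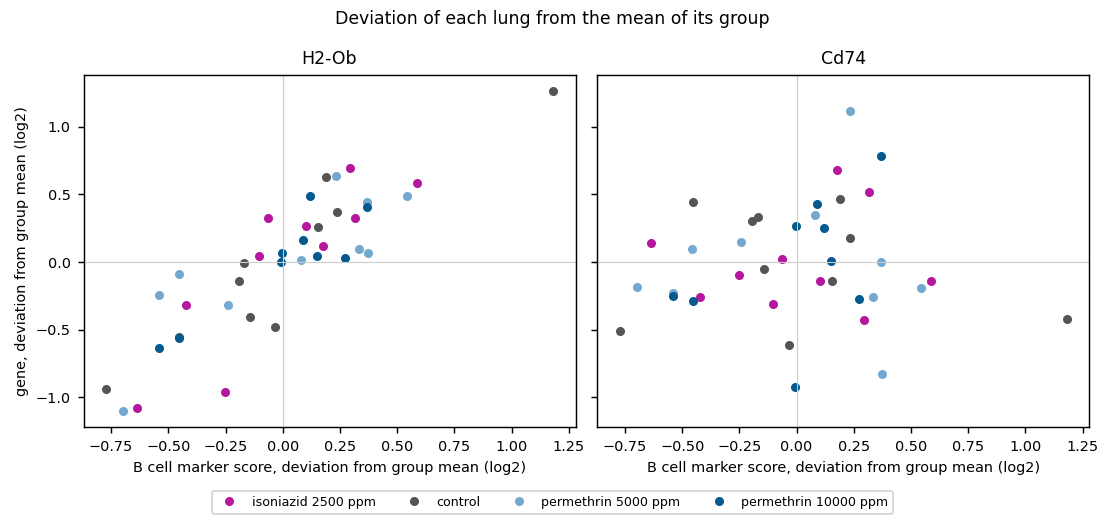
Deviation of each of the 39 lungs from the mean of its group, for the B cell marker score (horizontal axis, log2) and for H2-Ob (left) or Cd74 (right, vertical axis, log2), coloured by diet. The H2-Ob points run along a rising line (r = 0.875) and the Cd74 points do not (r = 0.057).

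The genes most like each class II gene were ranked by r of the same deviations over the 13020 genes and 39 arrays, as a description. Nearest to H2-Ob stood Btla (r = 0.913, rho 0.891), an inhibitory receptor of lymphocytes, Tnfrsf13b (r = 0.894, rho 0.868), the B cell receptor TACI, and Bank1 (r = 0.878, rho 0.860), a B cell adaptor on the marker list. Nearest to H2-Oa were 1110059E24Rik (r = 0.838, rho 0.790), Nsmce1 (r = 0.835, rho 0.797) and the plasma cell marker Mzb1 (r = 0.830, rho 0.817). Nearest to H2-Aa were the class I genes H2-K1 (r = 0.837, rho 0.847) and H2-D1 (r = 0.819, rho 0.831). H2-DMa stood nearest to the class I-like gene H2-M3 (r = 0.808, rho 0.767), and Ciita to the immunoproteasome subunit Psmb8 (r = 0.784, rho 0.648). H2-Ab1 stood nearest to its fellow members H2-DMa (r = 0.798, rho 0.733) and Ciita (r = 0.728, rho 0.643), and Cd74 to Ppp1r10 (r = 0.764, rho 0.756). Leaving aside H2-Eb1, H2-DMb2 stood nearest to Cybb (r = 0.598, rho 0.578), a subunit of the phagocyte oxidase, and St6gal1 (r = 0.584, rho 0.578), a sialyltransferase. The genes of H2-Aa, H2-Ab1 and H2-DMa lie in the same complex on chromosome 17 as these class I genes, with Ciita on chromosome 16 and Cd74 on chromosome 18.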

How the data were processed

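Signal intensity was measured once per probe set in lungs of 39 mice. The authors computed the deposited intensity with MAS5, per the submitters' processing notes, with the version not given in the sources used here; the trimmed mean of each array is 100. Background subtraction and probe summary could not be varied. Array medians ran from 17.4 to 26.2, so the signals were put on the log2 scale, without a pseudocount, and quantile normalized. Each gene kept its brightest probe set, and genes in the upper 60% of mean signal (log2 of at least 3.43) were tested. A change that most genes share would be lost in that scaling. The 8 group means were estimated in limma 3.58.1, whose empirical Bayes step followed the mean-variance trend, in R 4.3.3 with the data.table package (version 1.17.8), followed by 15 contrasts and an F test, two-sided. Errors of log2 differences are standard errors of this model. The fit was tested on simulated data. Relations to marker scores used permutation within groups.

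The members, gene lists and tests were chosen with earlier results of these data known. All members are named, and of each pathway list, in each comparison of a treatment with its control, up to 3 genes past the threshold with the smallest p, or otherwise up to 2 with the smallest p; the 3 genes most like each member by r could also be named. Not all of these are given, and marker genes were picked the same way after their values were seen. Groups and replicate numbers come from the titles. Same-numbered animals of different groups had a mean correlation of 0.03 in their deviations, with 33 of 133 pairs above 0.1. Differently numbered animals had a mean of -0.01, with 122 of 532 pairs above 0.1, so the numbers showed no pairing of the samples. Promoter sequences are RefSeq's. Alternatives were 2 other scalings, a pseudocount of 16, other filters and probe sets, fewer groups, a replicate block, array weights, no trend, leaving out 7 arrays of high Gapdh ratio, and leaving out each animal.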

Additional observations from a re-analysis of the deposited data

Results flagged for a closer look

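In 4 of 72 checks of a class II gene within a group of 4 or 5 lungs, 1 lung lay far from the others by Dixon's criterion, which chance meets in about 1 of 20 groups. H2-Ab1 read 11.2 in permethrin 5000 ppm 14 days replicate 2, above the other 4 lungs. H2-Eb1 read 6.18 and H2-DMb2 5.30 in the same animal, control 7 days replicate 3, below the other 4 controls; it is the only 7-day control at the low level of H2-Eb1. H2-Ob read 4.47 in isoniazid 14 days replicate 2, below the other 4 lungs of its group. Without that animal H2-Ob no longer passed between permethrin 10000 ppm and isoniazid (limma adjusted p = 0.0526) or in the F test over 8 groups.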

How the results depend on the processing

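Across 51 alternatives no called difference changed sign, and the 9 class II genes were all lower with isoniazid in 50 for 7 days, 50 for both times and 45 for 14 days; the 40% filter tests 8 of them, and H2-DMb2 changed sign at 14 days in 5. The counts of class II genes that passed moved as follows. Isoniazid against control at 7 days gained 1 (H2-Ob, adjusted p = 0.0219) with array weights. Over both times the count was 0 with only the compared groups and 0 without the 7 arrays of high Gapdh ratio. Permethrin 10000 ppm against isoniazid gave 2 with array weights and 2 without those arrays, and 0 to 2 leaving out 1 animal. The F test gave 0 with every named probe set and 0 without a trend, 2 with array weights and 2 without those arrays, and 0 to 1 leaving out 1 animal. The cause was not tested. The numbers did not pair the animals, and the replicate block left each of these counts as it was (1 for isoniazid over both times) and gave 7 calls over all genes for isoniazid at 14 days, against 4 without it.

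Counts of all genes that passed, over the alternatives that keep every animal or leave out the 7 arrays, were 2 to 72 for isoniazid at 7 days (6 as reported), 1 to 7 at 14 days (4) and 18 to 68 over both times (51). For permethrin 10000 ppm they were 20 to 45 (31), 9 to 71 (28) and 50 to 129 (65), and for 5000 ppm 9 to 25 (12), 8 to 22 (17) and 18 to 42 (29). They were 0 to 4 between the doses (1), 34 to 65 for permethrin 10000 ppm against isoniazid (46), 1073 to 3335 for 14 against 7 days (2372) and 74 to 941 for the F test (280). The number of arrays and the dim signal of some probe sets limit what a small difference can show.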

Other observations

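Genes around antigen presentation were also set between the permethrin doses and controls, and none of the following lists had a gene past the threshold at either dose. Of 13 tested genes induced by interferon gamma, 12 had lower means at 10000 ppm than in controls at 7 days and 12 at 14 days, with median log2 differences of -0.28 and -0.27. The mean log2 signal of the 13 genes at 7 days had a median of 7.42 and a highest value of 8.21 in controls. At 10000 ppm these were 7.26 and 7.50. At 5000 ppm 2 and 6 of the 13 were lower, with medians of 0.13 and 0.02. The 14-day value rested on 1 lung: without permethrin 5000 ppm 14 days replicate 2, 12 of the 13 were lower, with a median of -0.29. Of 14 tested genes induced by type I interferon, 14 had lower means at 10000 ppm at 7 days, with a median of -0.41, and 9 at 14 days, with a median of -0.06. At 5000 ppm 11 and 10 were lower, with medians of -0.18 and -0.11, and without that lung 13 were lower at 14 days, with a median of -0.32. Of 16 tested genes of the MHC class I pathway, which shows peptides from inside the cell to CD8+ T cells, 13 had lower means at 10000 ppm at each time and 16 over both, with a median over both of -0.05. At 5000 ppm 4 were lower at 7 days, 6 at 14 days and 1 over both, with a median over both of 0.05, and without the same lung 9 at 14 days and 9 over both, with medians of -0.04 and -0.01. Of all tested genes 50.6%, 45.6% and 46.9% were lower at 10000 ppm (7 days, 14 days and both), and 54.0%, 51.3% and 53.6% at 5000 ppm. Both doses share their control arrays, and genes of a list vary together, so the shared signs are a description.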
